A study of Mus musculus with 14 samples.

Results

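Ipp, Gm9222, Gm6958, 4930550L24Rik, Pfdn1 and H2-Bl are 6 genes, of 12394 with a symbol of their own on the array, whose signal was higher in blood-forming cells of the mouse after loss of Dnmt1, and they were grouped as possibly linked to retroelements. They were chosen because they stood among the genes that rose in knockout cells on these arrays, so their rise is described here and not tested. Every probe set with 1 of these symbols was taken, which gave 7 of the 22690 probe sets on the array, 2 of them for Gm6958. Of the 6 genes, the background knowledge of a retroelement start used here concerns Ipp, and for the others the link was not tested.

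Knockout cells came from Dnmt1fl/fl Mx-Cre+ mice, in which poly(I)poly(C) induces an interferon response that switches on Cre from the Mx promoter, and control cells came from Dnmt1fl/fl littermates without Mx-Cre. All mice were 8 to 12 weeks old, on a C57BL/6 background, and had received 7 doses of poly(I)poly(C) of 25 ug/kg, the last of them 4 days before marrow was taken. The controls thus share the floxed alleles and the poly(I)poly(C), but not Cre, so an effect of Cre itself and the loss of Dnmt1 cannot be told apart. Each array measured a pool of 4 to 6 mice of 1 genotype, and the 3 sorted populations were long-term stem cells (LT-HSCs, Lineage-c-Kit+Sca-1+CD34-), multipotent progenitors (MPPs, Lineage-c-Kit+Sca-1+CD34+) and myeloid progenitors (Lineage-c-Kit+Sca-1-). Of these, stem cells and MPPs were measured on 2 knockout and 2 control arrays each and myeloid progenitors on 3 and 3, in 7 littermate pairs.

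DNA methylation at CG dinucleotides, copied to new strands by Dnmt1, is a main means by which mammalian cells keep endogenous retroviruses silent. Intracisternal A particles (IAPs) are a young and active family of such elements in the mouse, and their long terminal repeats can serve as promoters of nearby genes when they are not methylated. Ipp takes its name, IAP-promoted placental gene, from placental transcripts that begin in such a repeat, and it encodes an actin-binding protein with kelch repeats.

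The annotated start regions of these genes are shown first because CG dinucleotides are what Dnmt1 acts on. RefSeq start windows (assembly GRCm38.p6) of 250 bases before to 50 bases after the start were matched for 4 of the 6 genes, Ipp, Gm9222, Gm6958 and 4930550L24Rik. Each is written 5′ to 3′ on the strand of its gene, with CG dinucleotides in capitals.
Ipp (chr4:116507299-116507598, plus strand): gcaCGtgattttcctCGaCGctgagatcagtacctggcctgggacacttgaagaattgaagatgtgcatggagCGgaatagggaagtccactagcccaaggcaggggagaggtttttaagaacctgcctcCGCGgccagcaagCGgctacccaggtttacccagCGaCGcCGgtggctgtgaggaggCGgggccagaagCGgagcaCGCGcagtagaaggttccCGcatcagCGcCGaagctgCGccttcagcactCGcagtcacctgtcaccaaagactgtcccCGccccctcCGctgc
Gm9222 (chr12:17881623-17881922, plus strand): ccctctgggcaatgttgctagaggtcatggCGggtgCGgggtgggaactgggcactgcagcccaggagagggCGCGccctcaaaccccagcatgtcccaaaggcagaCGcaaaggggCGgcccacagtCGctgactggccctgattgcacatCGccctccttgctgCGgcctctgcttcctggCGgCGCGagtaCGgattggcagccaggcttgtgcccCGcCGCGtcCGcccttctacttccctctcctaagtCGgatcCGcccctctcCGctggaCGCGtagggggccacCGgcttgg
Gm6958 (chr16:55961065-55961364, plus strand): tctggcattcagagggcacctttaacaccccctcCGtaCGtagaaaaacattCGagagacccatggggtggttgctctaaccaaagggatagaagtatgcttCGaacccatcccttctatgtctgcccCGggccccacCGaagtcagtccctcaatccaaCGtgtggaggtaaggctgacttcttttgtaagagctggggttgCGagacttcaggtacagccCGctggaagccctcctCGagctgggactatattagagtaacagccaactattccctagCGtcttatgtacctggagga
4930550L24Rik (chrX:58911211-58911510, plus strand): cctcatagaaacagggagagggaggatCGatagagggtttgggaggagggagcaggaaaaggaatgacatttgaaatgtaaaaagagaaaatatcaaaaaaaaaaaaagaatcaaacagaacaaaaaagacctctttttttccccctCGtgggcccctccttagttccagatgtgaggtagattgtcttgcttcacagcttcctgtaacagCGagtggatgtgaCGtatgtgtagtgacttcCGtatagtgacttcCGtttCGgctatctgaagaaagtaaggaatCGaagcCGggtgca
The windows of Ipp and Gm9222 were rich in CG and those of Gm6958 and 4930550L24Rik were closer to the typical window. Ipp had 21 CG dinucleotides and Gm9222 had 23, more than 75.2% and 78.5% of the 32851 windows of this length, whose median was 7. Gm6958 had 11 and 4930550L24Rik had 9, more than 58.6% and 54.2% of the windows. The ratio of observed to expected CG was 0.74, 0.67, 0.53 and 0.66 in this order, against a median of 0.38. Whether any of these bases was methylated was not measured, and the arrays do not tell where a transcript starts, so the window need not be the start in use.

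The Gm9222 window was the only one of the 4 that shared a stretch of 20 bases with windows of other genes, on either strand and leaving out runs of 8 equal bases. It shared them with 8 other genes, all of them on chromosome 12 like Gm9222 itself, and the longest shared run was 23 to 41 bases. The run of 41 bases, chr12:17881628-17881668, is shown because it also occurs in the windows of Gm10479, Gm38538 and Gm9257.
Gm9222 shared run: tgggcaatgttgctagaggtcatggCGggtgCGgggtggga
The windows were not compared beyond these runs. The Gm9222 probe set is of the _x_ kind, which may bind other transcripts. No probe set of the 8 other genes was found under their symbols, and whether they add to the signal called Gm9222 was not tested.

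Short motifs of factors whose binding or activity is known to be affected by CG methylation were searched on both strands. The E-box CACGTG, which overlaps no other motif searched, was in the window of Ipp and in 7.15% of all windows. The core TGACG of the cAMP response element was in the window of 4930550L24Rik and in 20.8% of all windows. The full element TGACGTCA, which contains that core, the ETS motif CCGGAAGT and the NRF1 motif were in none of the 4 windows, against 1.79%, 3.89% and 0.971% of all windows. TATAAA, the TATA box, was in none of the 4 and in 13.6% of all.

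On the chromosomes the 6 genes lie apart, on chromosomes 4 (Ipp), 12 (Gm9222), 16 (Gm6958), X (4930550L24Rik), 18 (Pfdn1) and 17 (H2-Bl), by the RefSeq table of GRCm38.p6. That table classes H2-Bl as a transcribed pseudogene and the others as protein coding, gives Mipp as another name of Ipp and mage-k1 as another name of 4930550L24Rik. The MAGE family, to which that name refers, includes X-linked genes whose expression is largely limited to the testis and to tumours, but not all its genes are of this kind.

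The median of an array was 41.1 to 49.1 units of intensity, the deposited linear scale, and r between arrays of the same group was 0.904 to 0.982. Dnmt1 was lower in knockout cells by 1 of its probe sets, at 501 to 870.1 units on knockout arrays against 1228 to 2107 on control arrays (-1.05 ± 0.16, SE, limma adjusted p = 0.00597). By the other it was at 745 to 1305 on knockout against 1328 to 2219 on control arrays, without overlap, but missed the threshold (-0.63 ± 0.14, limma adjusted p = 0.136). Which part of the gene is deleted is not stated, so this checks the labels in part. Cd34, which the sort used, ran as the labels say, with means of 44.7 units on knockout and 52.2 on control LT-HSC arrays, against 462 on knockout and 884 on control MPP arrays. The 6 stem cell markers with a probe set were divided. Slamf1 was higher in LT-HSCs than in MPPs in both genotypes (99.8 against 79.2 units on knockout and 65.9 against 29.4 on control arrays), and Hlf, Meis1 and Kit were lower in LT-HSCs in both. Procr and Mecom had the higher mean in LT-HSCs on knockout arrays and in MPPs on control arrays. A list of 11 B cell markers summed to 6400 to 10100 units on knockout and 7270 to 13600 on control LT-HSC arrays, against 281 to 2780 on all other arrays. The LT-HSC arrays thus carry B cell transcripts in both genotypes. In control LT-HSCs minus MPPs 2 of 5 erythroid markers, Klf1 and Epor, were higher by limma and 0 lower. Of 8 myeloid progenitor markers 2, Car1 and Ermap, were higher and 4 lower. Klf1 had means of 416 units in control and 436 in knockout LT-HSCs, against 41.6 and 226 in MPPs. Car1 had 1570 and 1360, against 93.5 and 501. The part of B cell and erythroid transcripts in the values below was not tested. In such bulk samples a change in the share of a cell type and a change of RNA per cell cannot be told apart.

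Ipp (Entrez Gene 16351) was higher on every knockout array than on any control array. In LT-HSCs it had 486 and 386 units on knockout arrays, against 89.6 and 161 on control arrays. In MPPs it had 267 and 746 units on knockout arrays, against 82.7 and 124 on control arrays. In myeloid progenitors it had 266, 649 and 642 units on knockout arrays, against 108, 60.5 and 107 on control arrays. The lowest knockout array, myeloid progenitor 1, still stood above the highest control array. In MPPs and in myeloid progenitors 1 knockout array was far below the rest of the knockout arrays of its population. Within littermate pairs knockout over control was 2.39 to 10.7 times, with a median of 5.43. On the log2(intensity + 16) scale, on which all differences below are given as knockout minus control, Ipp was at 1.77 ± 0.48 in LT-HSCs, 2.01 ± 0.48 in MPPs and, for myeloid progenitors, 2.29 ± 0.39 (SE of the limma fit, n = 2, 2 and 3 per genotype). The average of the 3 was 2.02 ± 0.26 (n = 7 arrays per genotype), and without 1 array it lay between 1.80 and 2.25. The MPP difference rested on few arrays, at 1.33 without MPP knockout array 2 and 2.69 without MPP knockout array 1.

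Gm9222 (Entrez Gene 668525) had the largest difference of the 6 genes. In LT-HSCs it had 1021 and 227 units on knockout arrays, against 53.5 and 53.8 on control arrays. In MPPs it had 415 and 534 units on knockout arrays, against 51.3 and 55.8 on control arrays. In myeloid progenitors it had 434, 879 and 441 units on knockout arrays, against 26.1, 47.6 and 48.8 on control arrays. Control arrays were near the median of their array, apart from a lower myeloid progenitor array 1, while the 2 LT-HSC knockout arrays were the highest and the lowest of all 7 knockout arrays. Knockout over control was 4.21 to 19.1 times within pairs (median 9.58). The differences were 2.94 ± 0.57 in LT-HSCs, 2.85 ± 0.57 in MPPs and, for myeloid progenitors, 3.37 ± 0.47, with an average of 3.05 ± 0.31. In LT-HSCs it was 1.76 without knockout array 1 and 4.14 without knockout array 2, so the size there rests on which array is used.

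Gm6958 (Entrez Gene 629242) was measured by 2 probe sets that ran in parallel. The files give it no role and none is stated here. By the first, of the plain _at kind, LT-HSCs had 3320.4 and 1714 units on knockout arrays, against 1175 and 771 on control arrays. MPPs had 2503 and 2066 units on knockout arrays, against 654 and 460.0 on control arrays, and myeloid progenitors had 1314, 2863 and 1449 units on knockout arrays, against 416, 564 and 470.1 on control arrays. Every knockout array was above every control array, the gene had a clear signal without any deletion, and among control arrays the LT-HSC ones were the highest. The differences were 1.40 ± 0.43 in LT-HSCs, 2.01 ± 0.43 in MPPs and, for myeloid progenitors, 1.84 ± 0.35, with an average of 1.75 ± 0.23, and 2.22 to 5.08 times within pairs. In LT-HSCs the difference was 0.80 without knockout array 1.

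The other probe set of Gm6958, of the _x_ kind, was brighter and had smaller differences. In LT-HSCs it had 4155 and 2661 units on knockout arrays, against 1750 and 2193 on control arrays. In MPPs it had 3048 and 3302 units on knockout arrays, against 1528 and 1310.4 on control arrays. In myeloid progenitors it had 2276, 4126 and 2620.2 units on knockout arrays, against 996, 1545 and 1390.2 on control arrays. The groups did not overlap, but the gap between the lowest knockout array and the highest control array was narrow. The differences were 0.85 ± 0.31 in LT-HSCs, 1.12 ± 0.31 in MPPs and, for myeloid cells, 1.16 ± 0.25, with an average of 1.04 ± 0.17. Without LT-HSC knockout array 1 the LT-HSC difference was 0.40. As a probe set of the _x_ kind it may also bind other transcripts, whose share in its signal was not tested.

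4930550L24Rik (Entrez Gene 75352) had almost no signal without the deletion. Control arrays of all 3 populations lay between 2.93 and 5.19 units. Knockout arrays had 23.6 and 14.9 units in LT-HSCs, 20.5 and 44.6 in MPPs and 16.8, 54.0 and 54.5 for myeloid progenitors. All 7 knockout arrays were above all 7 control arrays, yet only 4 of the 7 exceeded the filter on dim probe sets, the 40th percentile of the array, and no control array did. The gene was thus tested only because of its knockout arrays. The differences were 0.81 ± 0.37 in LT-HSCs, 1.18 ± 0.37 in MPPs and, for myeloid progenitors, 1.46 ± 0.30, with an average of 1.15 ± 0.20. MPPs were at 0.75 without knockout array 2. The size depends on the pseudocount, with an average of 2.55 at a pseudocount of 1 and of 0.46 at 64.

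H2-Bl (Entrez Gene 14963), a gene of the major histocompatibility complex (MHC) class I family named for its expression in the blastocyst, was likewise dim. LT-HSCs had 48.4 and 49.3 units on knockout arrays, against 11.3 and 7.19 on control arrays. MPPs had 41.5 and 63.96 units on knockout arrays, against 10.5 and 22.04 on control arrays, and myeloid progenitors had 15.1, 57.2 and 49.04 units on knockout arrays, against 5.85, 6.83 and 14.1 on control arrays. Here the groups overlapped, because myeloid progenitor knockout array 1 lay below MPP control array 2, although the knockout array was higher in all 7 pairs. Knockout arrays exceeded the filter in 6 of 7 cases and control arrays in 0 of 7. The differences were 1.37 ± 0.38 in LT-HSCs, 1.16 ± 0.38 in MPPs and, for myeloid progenitors, 1.10 ± 0.31, with an average of 1.21 ± 0.21. The average was 2.05 at a pseudocount of 1 and 0.56 at 64.

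Pfdn1 (Entrez Gene 67199) encodes subunit 1 of prefoldin, a complex that hands unfolded actin and tubulin to the chaperonin TRiC, and of the 6 genes it had the narrowest spread of ratios within pairs. LT-HSCs had 382 and 433 units on knockout arrays, against 155 and 241 on control arrays. MPPs had 373 and 361 units on knockout arrays, against 232 and 199 on control arrays, and myeloid progenitors had 286, 387 and 441 units on knockout arrays, against 164, 140.0 and 243 on control arrays. The gene was well expressed in both genotypes, and every knockout array was above every control array. Knockout over control was 1.61 to 2.76 times within pairs. The differences were 1.06 ± 0.28 in LT-HSCs, 0.78 ± 0.28 in MPPs and, for myeloid progenitors, 1.05 ± 0.23, with an average of 0.96 ± 0.15.

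**Figure D1:**
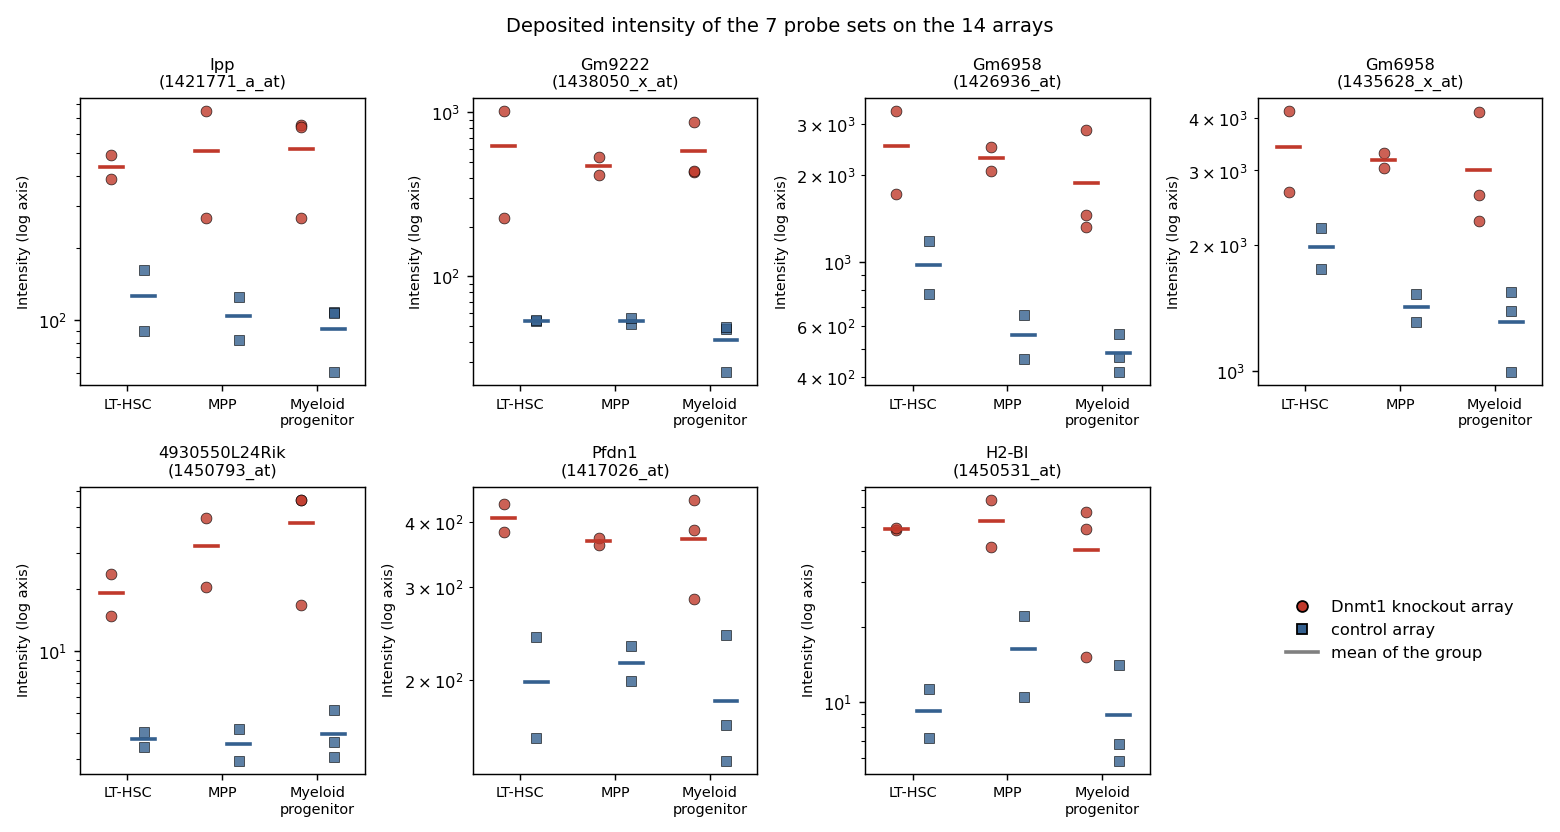
Deposited intensity (log axis) of the 7 probe sets in each population, with knockout arrays (circles) left of control arrays (squares), and a bar at the arithmetic mean of each group. For all but H2-Bl every knockout array lies above every control array, and 4930550L24Rik and H2-Bl are dim on control arrays.

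Of the 7 probe sets 6 had no overlap between the 7 knockout and the 7 control arrays, as had 0.309% of the 15549 probe sets tested, and 7 of 7 were higher on the knockout array of every pair, as were 2.35%. All 7 were among the 53 probe sets called higher on average, 0.341% of those tested. In myeloid progenitors 2 of 7, Ipp and Gm9222, were called higher, against 0.141% of all, and in LT-HSCs and MPPs 0 of 7 were called by limma, against 0.0579% of all in each, with 7 of 7 at an unadjusted p under 0.05 in each. Of all 15549 probe sets 1145 in LT-HSCs and 424 in MPPs were at an unadjusted p under 0.05. With the littermate pairs as blocks the counts were 2 of 7 in LT-HSCs, 2 in MPPs and 4 for myeloid progenitors, against 0.206%, 0.129% and 0.232% of all, and 7 on average, against 0.746%. Since the genes were chosen on this contrast, nothing is read from these counts. The choice had no threshold of its own, so the genes have no counterparts just outside it. By average difference Gm9222 had rank 9 of all probe sets tested, Ipp rank 28 and Pfdn1 rank 109.

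**Figure D2:**
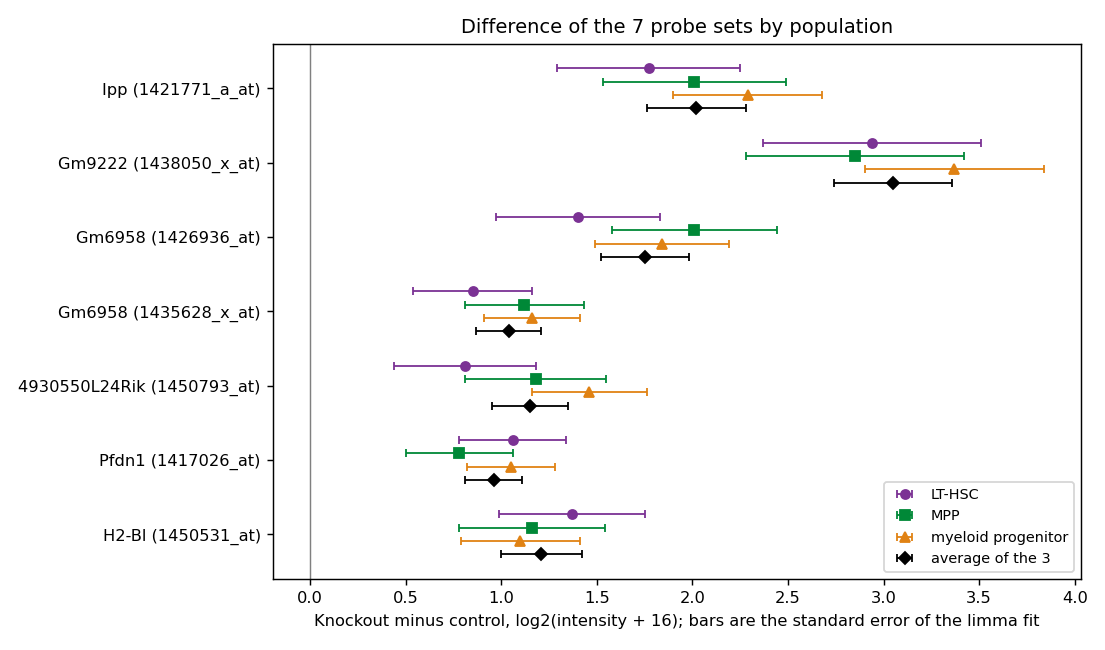
Difference, knockout minus control in log2(intensity + 16), of the 7 probe sets (rows), in LT-HSCs, MPPs, myeloid progenitors and on average, with bars of 1 standard error. Gm9222 lies farthest right at an average of 3.05 and Pfdn1 nearest to 0 at 0.96.

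Whether the size of the rise depended on the population was examined with interaction terms. These are built from the same knockout differences on which the genes were chosen, with 7 of 7 at an unadjusted p under 0.05 in each population (limma). A lack of interactions among genes so chosen is therefore not read as a result. None of the 7 probe sets passed in any of the 3 comparisons by limma, and 0% of all probe sets did. At an unadjusted p under 0.05 there were 0 of the 7 in each, against 500 of 15549 for LT-HSCs minus MPPs, 461 for LT-HSCs minus myeloid progenitors and 67 for MPPs minus myeloid progenitors. For Ipp the difference of LT-HSC and myeloid progenitor effects was -0.51, with a 95% interval of -1.85 to 0.82. For Gm9222 it was -0.43, with an interval of -2.01 to 1.16, and for Pfdn1 0.01, with an interval of -0.78 to 0.79. The lowest p belonged to 4930550L24Rik, at -0.65 for LT-HSCs minus myeloid progenitors (-1.68 to 0.38, unadjusted p = 0.197, limma). That gene and H2-Bl passed the filter only through their knockout arrays. Intervals of this width do not show that the populations respond alike.

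The levels were also compared between populations within 1 genotype. On control arrays Gm6958 was at 1.04 ± 0.39 for LT-HSCs minus myeloid progenitors by its _at probe set (unadjusted p = 0.018, limma adjusted p = 0.156) and at 0.65 ± 0.28 by its _x_ probe set (unadjusted p = 0.0384, limma adjusted p = 0.230), and both missed the threshold. Against MPPs the 2 probe sets were at 0.83 ± 0.43 and 0.49 ± 0.31 in control LT-HSCs, also short of the threshold. The B cell marker sum given above moves with this comparison, and its part was not tested. On knockout arrays Gm6958 was at 0.61 ± 0.39 and 0.34 ± 0.28 for LT-HSCs minus myeloid progenitors.

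For the other 5 genes no control population stood out. Ipp on control arrays averaged 125 ± 50.7 units in LT-HSCs, 103 ± 29.2 in MPPs and, for myeloid progenitors, 91.8 ± 27.1 (SD, n = 2, 2 and 3), an order in which no neighbours differed beyond their spread. On knockout arrays it averaged 436 ± 70.9 in LT-HSCs, 507 ± 338 in MPPs and, for myeloid progenitors, 519 ± 219, again within the spread. Knockout Gm9222 averaged 624 ± 561, 474 ± 84.5 and 585 ± 255 units in the same order of populations. Knockout 4930550L24Rik had its lowest mean in LT-HSCs, at 19.2 ± 6.18 units, then 32.5 ± 17.1 in MPPs and, for myeloid progenitors, 41.7 ± 21.6, and the difference of LT-HSCs and myeloid progenitors was -0.68 ± 0.34 (limma adjusted p = 0.319). Over the 6 comparisons within a genotype 0 of 7 probe sets passed by limma in each. Of all probe sets 1.83% passed between LT-HSCs and MPPs, 0.0579% between myeloid progenitors and MPPs and 5.34% between LT-HSCs and myeloid progenitors on control arrays, and 0.476%, 0% and 3.14% in the same order on knockout arrays. Among the 7 there were 2 at an unadjusted p under 0.05, both of Gm6958 in control LT-HSCs minus myeloid progenitors, where 3002 of the 15549 probe sets were at such a p.

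The knockout arrays differed among themselves, and the array with the highest value was not the same for all genes. LT-HSC knockout array 1 was the highest for Gm9222 and for both Gm6958 probe sets. MPP knockout array 2 was the highest for Ipp and H2-Bl, and myeloid progenitor knockout array 3 for 4930550L24Rik and Pfdn1. Myeloid progenitor knockout array 2 came second for 6 of the 7 probe sets, and myeloid progenitor knockout array 1 was the lowest for 5. The 3'/5' signal ratio of Gapdh, which reflects RNA integrity, was 2.33 on that array against 5.27 on the control array of its pair, and 5.15 against 5.44 in LT-HSC pair 1, while the other pairs had 2.36 to 4.35 on knockout and 2.25 to 4.30 on control arrays. The same ratio of Actb was 1.13 on myeloid progenitor knockout array 1 and 1.18 on its control, and 0.75 to 1.18 over all arrays. The part of RNA integrity in these levels was not tested.

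Once the 6 group means were removed, deviations over the 14 arrays correlated at 0.79 and 0.86 between Gm9222 and the 2 probe sets of Gm6958. They correlated at 0.86 between Ipp and 4930550L24Rik, 0.77 between Ipp and H2-Bl and 0.81 between 4930550L24Rik and H2-Bl. Between Ipp and the Gm6958 probe sets they were at -0.02 and 0.20. Without the 2 arrays that deviated most in the first gene of each pair, the 5 high values were 0.70, 0.87, 0.74, 0.62 and 0.62. These are descriptions over arrays that share their pools, amplification and scaling, and the groups of 2 arrays leave few free deviations.

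**Figure D3:**
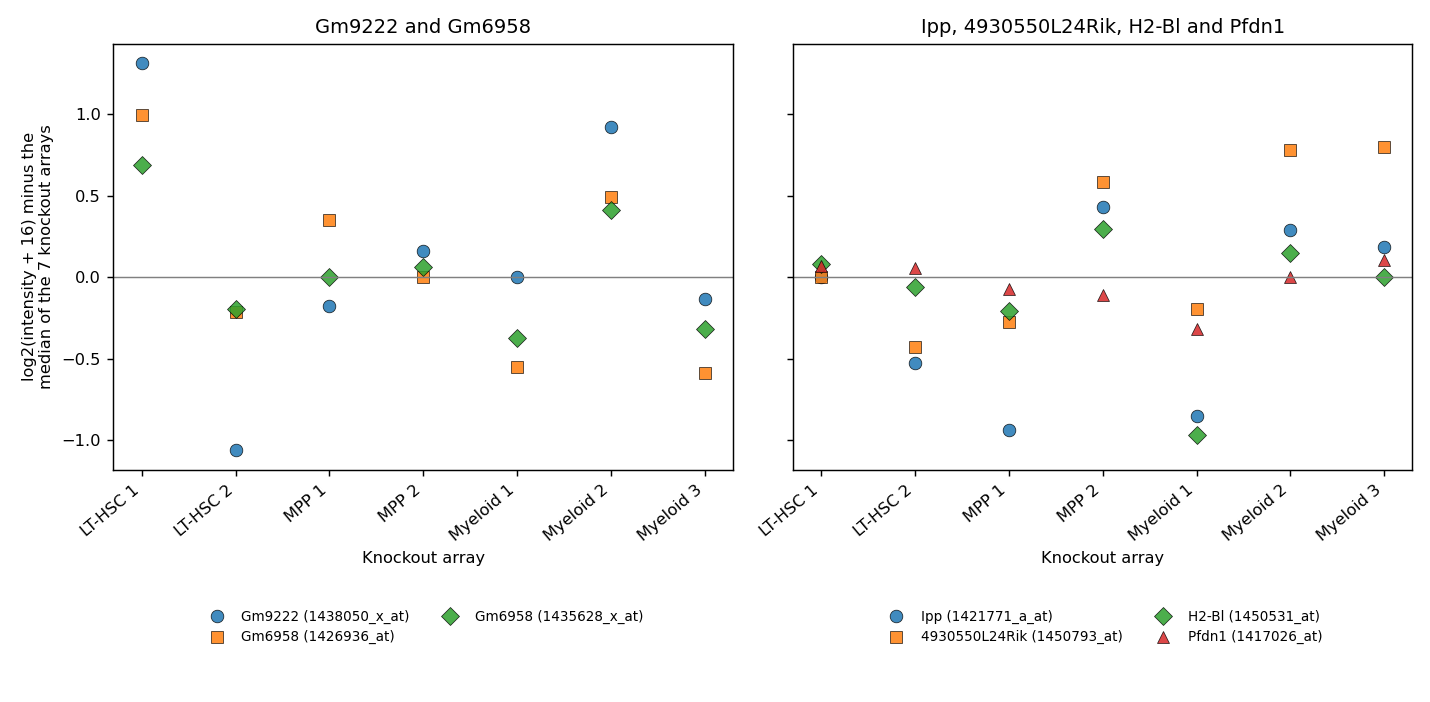
Log2(intensity + 16) of each probe set on the 7 knockout arrays (x axis, by population and replicate) minus its median over those arrays. Gm9222 and the 2 Gm6958 probe sets (left) are highest on LT-HSC array 1, while Ipp, 4930550L24Rik and H2-Bl (right) are higher on MPP array 2 than on MPP array 1.

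The probe sets most like each gene, by Pearson correlation over the 14 arrays among 14191 others with 1 symbol, included several genes known for roles in germ cells. Ipp was most like Mnd1, a gene of meiotic recombination (r = 0.97), the X-linked tumour antigen gene Trap1a (0.97) and Tex19.2 (0.96), a gene of germ cells. Gm9222 was most like Mnd1 (0.96), Tex19.1 and Tex19.2 (both 0.94), Pfdn1 like Tex19.1 (0.92), Tex19.2 (0.92) and Trap1a (0.91), and H2-Bl like the X-linked homeobox gene Rhox5 (0.94), Tex19.1 (0.93) and Tex19.2 (0.93). 4930550L24Rik was most like Rpl39l (0.98), Noct (0.95) and Dazl (0.95), whose product binds RNA in germ cells. The correlations over the 14 arrays include the contrast of the genotypes, on which the genes were chosen. Deviations from the group means leave out the mean contrast, but not how far each knockout array rose. By these deviations 4930550L24Rik was again closest to Rpl39l (0.97) and Noct (0.96), followed by the meiotic gene Hormad1 (0.95). On control arrays 4930550L24Rik, Rpl39l and Hormad1 were near the floor, at 2.93 to 5.19, 5.03 to 9.56 and 1.73 to 4.12 units. The deviations of 4930550L24Rik thus come mainly from knockout arrays, and this likeness is not free of the choice of genes. For the other genes the partners changed. By deviations Ipp was closest to Clvs1 (0.96), Patj (0.93) and Ptgir (0.92), and Gm9222 to Ccdc106, Macroh2a3 and Mapk8ip3 (0.95 each). Pfdn1 was closest to H2-K1 (0.93), Aak1 (0.93) and Cd55 (0.90), and H2-Bl to Mogat2 (0.94), Pfn2 (0.91) and Nhsl2 (0.91).

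Gm6958 had other partners. Its _at probe set was most like Car3, a carbonic anhydrase gene (0.94), Suv39h2, which encodes an H3K9 methyltransferase found mainly in testis (0.90), and Mnd1 (0.88), and its _x_ probe set was most like Car3 (0.91), Tex13b (0.88) and Mnd1 (0.87). By deviations the first was closest to Scoc (0.96), Zfp574 (0.95) and Nprl2 (0.94) and the second to Iqsec1 (0.95), Gnb4 (0.95) and Grb2 (0.94). Car3 had 158 to 550.3 units on knockout arrays against 87.1 to 164 on control arrays. Suv39h2 had 195 to 432 units on knockout arrays against 96.1 to 192 on control arrays, with an average difference of 0.99 ± 0.22 that missed the threshold (limma adjusted p = 0.129).

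The nearest measured genes on the chromosome were examined beside the 6, using the 3 nearest genes with a probe set on each side at any distance. Distances were not taken into account, so the values do not show how far a rise extends along the chromosome. This list of 36 genes was drawn up after the values of the 6 genes were seen. Of the 26 that passed the filter on dim probe sets, 0 passed the test in any of the 4 knockout comparisons by limma, and 0 had an unadjusted p under 0.05 on average. Their average differences lay between -0.45 and 0.25, with a median of -0.05, beside a median of -0.01 over all probe sets. Among the nearest measured genes of Ipp, the kinase gene Mast2 was at 0.25 ± 0.17 and Nasp, a histone chaperone gene, at 0.22 ± 0.20. Among those of Pfdn1, Pura was at -0.31 ± 0.20 and Sra1 at 0.10 ± 0.17. The nearest measured genes of Gm6958, Zbtb11os1 and Pcnp among them, lay between -0.45 and 0.16. Of the Gm6958 neighbours, Alcam, an adhesion molecule gene, was at 1.42 in LT-HSCs and -1.12 in MPPs (unadjusted p = 0.00718 and 0.0256, limma adjusted p = 0.403 and 1). Around 4930550L24Rik 1 of 6 neighbours, Rbmx, passed the filter, at -0.09 ± 0.23.

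None of the tested partners of Pfdn1 passed the test. Of the 8 other genes of prefoldin and the related complex, 7 had a probe set and 7 passed the filter. Of these 0 were higher and 0 lower by limma in any knockout comparison, and 0 had an unadjusted p under 0.05 on average. On average the prefoldin subunit genes Pfdn2, Vbp1, Pfdn5 and Pfdn6 were at 0.19 ± 0.16, -0.20 ± 0.13, -0.11 ± 0.19 and 0.12 ± 0.11. The related Pdrg1, Uri1 and Uxt were at -0.13 ± 0.17, -0.01 ± 0.21 and -0.17 ± 0.28. Of the 8 genes of the TRiC chaperonin, to which prefoldin delivers its clients, 0 passed, and their average differences lay between -0.03 and 0.13 with a median of 0.04.

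None of the tested relatives of H2-Bl passed the test. Of 24 other genes of MHC class I and its light chain, 12 had a probe set and 7 passed the filter. Of these 0 passed the test in any knockout comparison by limma, with 0 at an unadjusted p under 0.05 on average. By population, Mr1 was at 0.81 in LT-HSCs and -0.88 in MPPs and H2-M3 at -1.01 in MPPs (unadjusted p = 0.0494, 0.0342 and 0.0363, limma). H2-K1 and H2-D1, the classical class I chains, had 2249.6 to 3039.8 and 1686 to 2852.5 units on knockout arrays, against 2103 to 3548 and 1876 to 3084 on control arrays, with average differences of 0.00 ± 0.07 and 0.00 ± 0.10. The light chain B2m was at -0.03 ± 0.06. The RefSeq table lists H2-D1 and H2-K1 among the synonyms of H2-Bl, so the symbols of this family can stand for one another in annotations. Of 11 genes of class I peptide loading 0 passed (median 0.02), and 1, Tapbpl, was lower at an unadjusted p under 0.05, at -0.46 ± 0.18 (limma adjusted p = 0.716). Interferon raises class I genes and all mice had received poly(I)poly(C). Of 22 interferon response genes 0 passed by limma and 0 had an unadjusted p under 0.05 on average, with a median of -0.02 and a range of -0.35 to 0.42.

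Genes of the kelch family with a BTB domain, to which Ipp belongs, had a median of -0.02 on average over 18 that passed the filter. The list held 43 genes, of which 21 had a probe set. By limma 0 passed in any knockout comparison. On average Keap1 was at 0.26 ± 0.12 and Klhl26 at -0.55 ± 0.20, the 2 with an unadjusted p under 0.05 (limma adjusted p = 0.817 and 0.625).

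A short list of other mouse genes known for alleles or transcripts driven by an IAP held 5 genes, of which 3 passed the filter. Noct, a circadian gene of the CCR4 family in which an IAP insertion has been described, rose by 2.29 ± 0.26 on average (limma adjusted p = 0.000657), with 347 to 1122 units on knockout arrays against 68.5 to 180 on control arrays. Without 1 array its difference lay between 2.09 and 2.48. Its rise was known when the list was drawn up and is no independent evidence. Axin1 was at -0.01 ± 0.23 and Cdk5rap1 at -0.20 ± 0.21, and both are known for IAP insertions in particular mouse strains or alleles. The agouti gene a and Il3 did not pass the filter.

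Genes that silence retroelements were listed with 1 probe set each. Of 19 that passed the filter 0 passed the test by limma in any knockout comparison by that probe set, while Dnmt1, which is on the list, passed on average by its other probe set (-1.05, given above). The list had a median of -0.06 on average. At an unadjusted p under 0.05 on average Suv39h2 was higher, as given above, and Dnmt1, by the listed probe set, was at -0.63. Trim28, the corepressor of KRAB zinc finger proteins, was at -0.08, Setdb1, the H3K9 methyltransferase it recruits, at 0.18, Uhrf1, which brings Dnmt1 to replicated DNA, at 0.13 and Hells, a remodeller needed for DNA methylation, at 0.13.

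**Figure D4:**
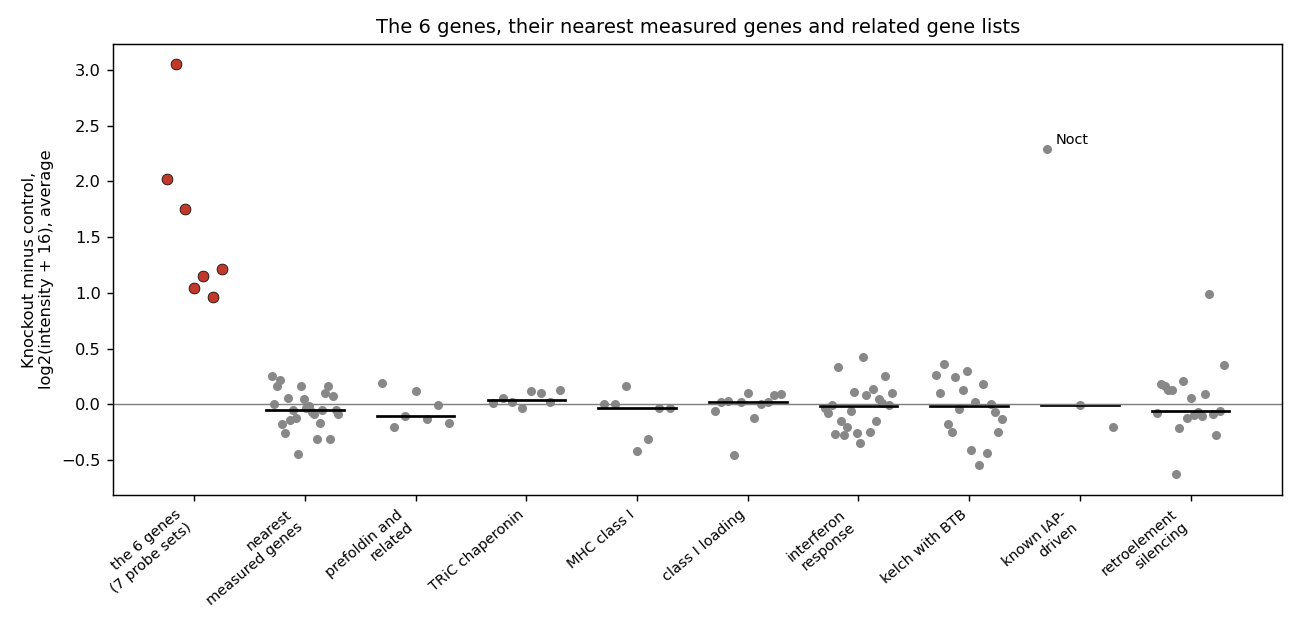
Average difference, knockout minus control in log2(intensity + 16), for the 7 probe sets of the 6 genes (left) and for single genes (grey points, with the median as a bar) of the nearest measured genes and of 8 related lists. The 7 probe sets lie between 0.96 and 3.05, Noct at 2.29 is the only other point above 1, and the medians of the lists lie between -0.11 and 0.04.

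Markers of cell types differed between the genotypes in both directions, without passing the test. The 2 multipotent progenitor markers, Cd34 and Flt3, summed to 423 to 923 units on knockout against 1150 to 1830 on control MPP arrays, without overlap, and Flt3 was at -1.48 ± 0.70 in MPPs (unadjusted p = 0.0531, limma adjusted p = 1). Of 5 erythroid markers that passed the filter 5 were positive on average, with a median of 0.85, 0 past the threshold by limma and 4 at an unadjusted p under 0.05. The 6 with a probe set summed to 1570 to 1910 units on knockout arrays against 662 to 1860 on control arrays in LT-HSCs, 1210 to 1440 against 579 to 740 in MPPs and 877 to 1370 against 663 to 1050 for myeloid progenitors, with the globin gene Hba-a1 at group means of 1.90 to 4.10 units. Of 10 T and NK cell markers 9 were positive on average, with a median of 0.32 and 0 past the threshold, and 3 at an unadjusted p under 0.05 (limma). Their median was 0.76 in LT-HSCs, 0.12 in MPPs and, for myeloid progenitors, 0.07. The 11 with a probe set summed to 1400 to 2480 units on knockout against 889 to 1340 on control LT-HSC arrays, without overlap. In MPPs the sums were 1240 to 1450 against 1080 to 1450 and, for myeloid progenitors, 867 to 1280 against 917 to 1370. The erythroid median was 1.04 in LT-HSCs, 0.74 in MPPs and, for myeloid progenitors, 0.35. In MPPs the erythroid genes Epor and Klf1 were at 2.06 ± 0.46 and 2.24 ± 0.63 (limma adjusted p = 0.358 and 1). Of 8 myeloid progenitor markers 6 were positive on average, with a median of 0.37, 0 past the threshold and 3 at an unadjusted p under 0.05 (limma). These 3 were Gata1, Car1 and Ermap, at 1.00 ± 0.28, 0.88 ± 0.27 and 0.72 ± 0.27 on average and 1.62, 2.46 and 2.19 in MPPs. On control arrays their means were 363, 1570 and 1360 units in LT-HSCs, against 191, 1250 and 1350 in myeloid progenitors. They thus did not mark myeloid progenitors against LT-HSCs here, while the other 5 were lower in control LT-HSCs by limma. The rest, Mpo, Elane, Ctsg, Prtn3 and Irf8, were at 0.27, 0.47, -0.02, 0.02 and -0.31 on average. Of 6 dendritic cell and MHC class II markers 5 were positive on average, with a median of 0.25. These markers summed to 1480 to 2000 units on knockout against 1120 to 1430 on control LT-HSC arrays, with overlap in the other populations. Of 11 B cell markers 6 were positive on average (median 0.07) and of 5 stem cell markers 1 was (median -0.19). Each of these 3 lists had 0 past the threshold and 1 at an unadjusted p under 0.05 on average (limma). The part of all these cell type markers in the rise of the 6 genes was not tested.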

How the data were processed

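RNA of the 14 sorted pools was amplified with WT-Ovation Pico, labelled with biotin and hybridised to 1 Affymetrix array each, per the labels' protocols. The authors deposited linear intensity values per probe set, whose summarisation, background correction and scaling are not given in the sources used here. Of 22690 probe sets, 20380 had 1 symbol in the platform annotation, 691 several and 1555 none, and 64 were controls.

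Intensities were taken as log2(intensity + 16) and quantile normalized. The 15549 non-control probe sets above the 40th percentile of their array on at least 2 arrays were fitted with 6 group means in limma 3.58.1 (R 4.3.3, eBayes with trend, 8 residual degrees of freedom). Two-sided p-values were adjusted by Benjamini-Hochberg across the 15549 probe sets, at a threshold of 0.05. Precision is limited by the 2 or 3 arrays per group. The median SE of an average difference over all probe sets was 0.19. The fit was tested on simulated data.

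The genes and lists were chosen with earlier results of these data known, so no p-value is given for the knockout effect on the 6 genes. Named besides them are the prefoldin and IAP lists, list genes past the threshold, and the 3 probe sets most like each gene. Neighbours and other list genes were named after their values were seen. Littermate pairs come from the labels, and deviations of paired arrays correlated at 0.21 to 0.59. Alternatives were the pseudocount, normalization, filter, 1 probe set per gene, the replicate block and leaving out each array. Sequences come from RefSeq tables (GRCm38.p6).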

Additional observations from a re-analysis of the deposited data

How the results depend on the processing

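Across 604 recomputed values of the 28 knockout effects of the 7 probe sets, 604 were positive, 0 changed sign and 27 moved by more than the spread between replicates. At pseudocounts of 1 and 64 the averages were 2.55 and 0.46 for 4930550L24Rik and 2.05 and 0.56 for H2-Bl, as the construction of the scale gives for dim probe sets. Probe sets past the threshold numbered 54 on average, 12 in stem cells (LT-HSCs), 9 in MPPs and 22 for myeloid progenitors. With the littermate pairs as a replicate block they numbered 142, 45, 22 and 36 in this order. With 1 probe set per gene fewer features are tested and the _at probe set of Gm6958, the dimmer of its 2, is dropped. Probe sets past the threshold then numbered 20 on average, 6 in LT-HSCs and 8 in myeloid progenitors. At a pseudocount of 64 they numbered 4 in MPPs and 10 in myeloid progenitors. Leaving out each array in turn gave 43 to 103 on average, 3 to 165 for LT-HSCs, 3 to 11 for MPPs and 6 to 30 for myeloid progenitors. The LT-HSC count was 165 when the second stem cell knockout array was left out and 3 when the first was, and the cause was not tested. The average count was 103 without LT-HSC control array 2. In the interaction terms and the comparisons of populations 0 of 7 probe sets passed under every alternative run, and the block allowed no comparison of populations because pairs lie within a population. Signals near background limit 4930550L24Rik and H2-Bl.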
